A study of Rattus norvegicus with 8 samples.

Results

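The genes described here encode the machinery by which cells display peptides on MHC class II molecules, measured in the distal colon mucosa of rats fed quercetin or a control diet. They are Cd74, RT1-Ba, RT1-Bb, RT1-Da, RT1-Db1, RT1-DMa, RT1-DMb and Ciita. A probe set, the group of short probes that reports 1 transcript on the array, was taken where the platform annotation gave it 1 of these symbols and no other. That selected 14 of 31042 probe sets, for 8 of the 14217 genes that had a symbol of their own. Probe sets were taken by symbol and not by their values, but the 8 genes were chosen with earlier results of these data known. The quercetin group was 4 samples from rats fed 10 g of quercetin, a plant flavonol, per kg of diet for 11 weeks, and the control group was 4 samples from rats kept on RM3 breeder diet over the same time. Each sample was total RNA from scrapings of the rinsed distal colon mucosa, hybridised to 1 Affymetrix array. The labels do not say whether each array holds a separate rat, so p-values measure only the spread between these samples.

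MHC class II molecules are pairs of an alpha and a beta chain that carry peptides from endosomes to the cell surface, where CD4+ T cells read them. In the rat the classical chains are those of RT1-B and RT1-D. Cd74, the invariant chain, fills the binding groove until the heterodimer RT1-DM exchanges its remnant for a peptide, and Ciita, the class II transactivator, switches the whole set on. Dendritic cells, macrophages and B cells carry class II at all times, and gut epithelium can be induced to carry it by interferon gamma.

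Ciita acts through proteins bound at paired X and Y boxes upstream of these genes, so the promoter stretches that hold such letters are shown first. RefSeq promoter windows (build GRCr8), 250 bases before to 50 after a start, were matched for 6 of the 8 genes. In the first 5 sequences the capitals mark a loose X box core, GNNACNG, and the Y box TGATTGG. The last one is from Cd74, and its capitals mark the X box core AGNNACA and the shorter Y box ATTGG, there on the other strand. All are written 5′ to 3′ on the strand of the gene.
RT1-Da: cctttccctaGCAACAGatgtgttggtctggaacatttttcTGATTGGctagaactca
RT1-Db1: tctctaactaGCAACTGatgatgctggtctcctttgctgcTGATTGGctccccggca
RT1-Ba: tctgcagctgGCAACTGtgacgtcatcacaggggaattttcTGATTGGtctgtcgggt
RT1-Bb: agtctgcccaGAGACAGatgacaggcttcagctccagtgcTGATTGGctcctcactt
RT1-DMa: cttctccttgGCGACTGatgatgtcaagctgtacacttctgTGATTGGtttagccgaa
Cd74: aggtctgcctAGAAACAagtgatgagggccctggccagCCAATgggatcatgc

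These stretches lie at chr20:4515323-4515380 on the plus strand (RT1-Da), chr20:4560228-4560284 on the minus strand (RT1-Db1), chr20:4576971-4577028 on the plus strand (RT1-Ba), chr20:4604165-4604221 on the minus strand (RT1-Bb), chr20:4712385-4712442 on the minus strand (RT1-DMa) and chr18:56526979-56527031 on the plus strand (Cd74). The distance from the first base of the X core to the first base of the Y box was 31 bases in RT1-Da, RT1-Ba and RT1-DMa and 30 bases in RT1-Db1 and RT1-Bb. The Y box TGATTGG stood in 5 of the 6 windows, on the strand of the gene, and in 7.06% of all 33469 windows searched on both strands. A loose core followed within 40 bases by that Y box stood in the same 5 windows and in 0.923% of all windows. Taken alone, the loose core stood in 88.1% of all windows, AGNNACA in 55% and ATTGG, which TGATTGG contains, in 37.5%. The X2 letters TGNGTCA stood in 14.5% of all windows and in 0 of these 6. That spelling cannot match longer forms such as tgacgtca, in the RT1-Ba sequence above, or tgatgtca, in RT1-DMa. The count of 0 therefore does not show that an X2 box is absent. The loose core and the pair were set down after the sequences had been read, and a match of letters is a description, not a binding site.

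**Figure D1:**
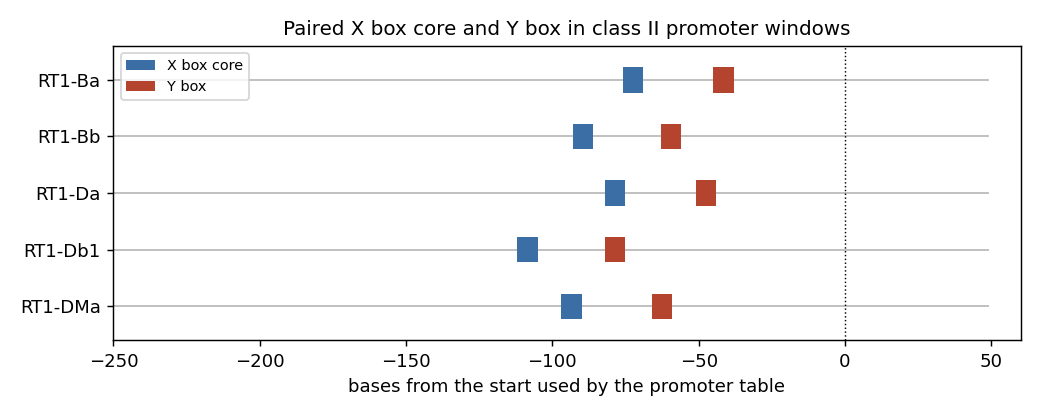
Position of the paired X box core (blue) and Y box (red) in the promoter windows of the 5 genes that held the pair. The x axis gives bases from the start used by the RefSeq promoter table; the X core begins 76 to 112 bases before the start (-112 to -76) and the Y box follows it by 30 or 31 bases.

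On every one of the 8 genes the brightest probe set, which stands for the gene from here on, had a higher mean signal in the quercetin group, but no gene passed the test. The median log2 fold change of the 8 was 0.50, against 0.01 over all 18625 probe sets tested, and the single genes ran from 0.14 to 0.64. These values are differences of log2(signal + 16), quercetin minus control, and understate the change of dim genes. In limma's fit across all tested probe sets 0 of the 8 passed an adjusted p of 0.05, where 0.0107% of all probe sets did, and their adjusted p-values were 0.295 to 0.84. At an unadjusted p under 0.05, 4 genes were higher, Cd74, RT1-Da, RT1-Bb and RT1-Db1, where 5.04% of all probe sets were called higher. A log2 fold change above 0 was found for 51.3% of all probe sets. The groups did not overlap in Cd74 and RT1-Bb, and in 3.09% of all probe sets in that direction.

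Both arrays numbered 2 weighed on these values. Quercetin array 2 had the highest signal of all 8 arrays in 6 of the 8 genes, and control array 2 the lowest in 6 of the 8. The mean over the 8 genes, relative to the mean of all arrays, was 0.09, 0.56, 0.23 and -0.04 on quercetin arrays 1 to 4 and -0.07, -0.47, -0.16 and -0.15 on control arrays 1 to 4. On this mean every quercetin array was above every control array, with quercetin array 4 and control array 1 only narrowly apart. Singly, only Cd74 and RT1-Bb were without overlap. No background was computed for such a mean, and its genes were chosen with earlier results known. Control array 2 also correlated least with the rest (mean r 0.927, against 0.941 to 0.955 for the others). Its 3′ to 5′ signal ratios, which rise when RNA is shortened, were 21.4 for beta-actin, against 6.79 to 9.12 on quercetin arrays and 8.65 to 12.4 on the other control arrays. For GAPDH the ratio was 3.79 on that array, against 1.91 to 2.36 on quercetin arrays and 1.58 to 2.15 on the other control arrays.

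Without control array 2 the 8 genes kept a positive sign, the same 4 genes had an unadjusted p under 0.05 (background 5.62% higher), and the median was 0.38. None passed an adjusted p of 0.05 (background 0.00537%), and Cd74 and RT1-Bb were again the genes without overlap (background 5.18%). Without both arrays numbered 2, a setting chosen after the data were seen, 7 genes had a positive sign (background 51.1%), the median was 0.27 and 1 gene, Cd74, had an unadjusted p under 0.05 (background 3.65% higher). The groups still did not overlap in Cd74 and RT1-Bb, where 6.69% of all probe sets did not in that direction. Over all 8 arrays, 6 of 8 markers shared by all leukocytes were tested. Of these, 6 had a positive log2 fold change (background 51.3%) and 0 passed (background 0.0107%), with a median of 0.67. Without both arrays numbered 2 the median of these markers was 0.62. Quercetin array 2 was the highest array for them as well (0.84 above the mean of all arrays), but their lowest was control array 1 (-0.49), with control array 2 at -0.10. The summed signal of the 8 markers was 1153 to 1731 on quercetin arrays and 875 to 1245 on control arrays. Its largest part came from Rac2, with 701 to 863 in quercetin and 600 to 868 in control (log2 fold change 0.13). The part of the leukocyte markers in the class II values was not tested, and in scrapings fewer cells of a type and less RNA per cell cannot be told apart.

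**Figure D2:**
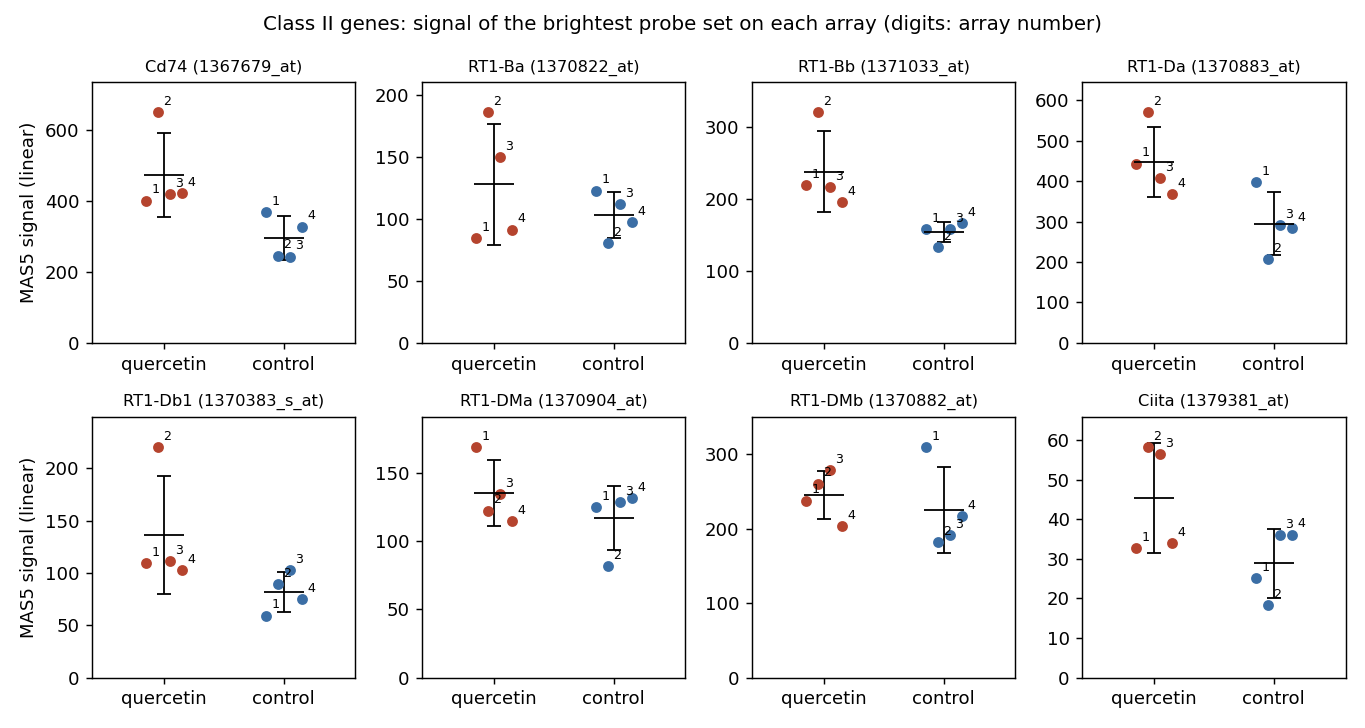
MAS5 signal (linear) of the brightest probe set of each class II gene, with 1 point for each of 4 quercetin and 4 control arrays (digits give the array number), and the mean with SD in black. Quercetin and control points do not overlap for Cd74 and RT1-Bb and overlap for the other 6 genes.

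Cd74 had signals of 402, 651, 419.6 and 422 on quercetin arrays 1 to 4, against 369, 246, 244 and 328 on control arrays 1 to 4. All quercetin values lay above all control values, with quercetin array 2 well above the other 3. The group means were 474 ± 119 (SD, n = 4) in quercetin and 297 ± 62.2 (SD, n = 4) in control. The log2 fold change was 0.64 (SE 0.193, 95% interval 0.22 to 1.06), 1.56-fold on the transformed scale, with an adjusted p of 0.295. Without control array 2 it was 0.56, and without quercetin array 2 it was 0.48.

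RT1-Da, the alpha chain of the RT1-D pair, had signals of 444, 570.2, 408 and 369 on quercetin arrays 1 to 4, against 397, 207, 291 and 284 on control arrays 1 to 4. Of the 4 quercetin values 3 were above the highest control value, and quercetin array 4 was below control array 1. The means were 448 ± 87.3 (SD, n = 4) in quercetin and 295 ± 78.2 (SD, n = 4) in control. Its log2 fold change was 0.59 (SE 0.199, 95% interval 0.16 to 1.02, adjusted p = 0.34), and 0.45 without control array 2.

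RT1-Db1 is a beta chain of the same pair, and its brightest probe set, 1370383_s_at, is of a kind that can also pick up related transcripts, so near-identical class II beta genes may add to it. It gave 109.5, 220.5, 112 and 103 on quercetin arrays 1 to 4, against 59.2, 89.7, 103 and 75.2 on control arrays 1 to 4. Quercetin array 2 stood far above the other arrays, while quercetin array 4 and control array 3 were almost level. The log2 fold change was 0.59 (SE 0.253, 95% interval 0.05 to 1.14, adjusted p = 0.429), and 0.36 without quercetin array 2. Leaving out quercetin array 2, control array 1 or control array 4 took its unadjusted p above 0.05. Its second probe set, 1370382_at, gave 96.5, 118, 110.4 and 86.2 in quercetin, against 47.1, 98.5, 79.8 and 64.3 in control. There quercetin array 2 did not stand apart, and the groups overlapped through control array 2. The value was 0.45 (SE 0.228, 95% interval -0.04 to 0.95, adjusted p = 0.509), 0.59 without control array 2 and 0.30 without control array 1.

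RT1-Bb, the beta chain of the RT1-B pair, had signals of 219.5, 321, 216 and 196 on quercetin arrays 1 to 4, against 158, 133, 158 and 167 on control arrays 1 to 4. The control arrays lay close together and below all quercetin arrays. The means were 238 ± 56.2 (SD, n = 4) in quercetin and 154 ± 14.4 (SD, n = 4) in control. The log2 fold change was 0.56 (SE 0.181, 95% interval 0.17 to 0.95, adjusted p = 0.333), and 0.50 without control array 2. Its other probe set, 1371065_at, was too dim to be tested, with signals of 2.07 to 27 in quercetin and 2.94 to 53.5 in control, and its difference had the opposite sign (-0.16). The 53.5 was on control array 2, and the other control arrays gave 2.94 to 6.56. When both probe sets were averaged, RT1-Bb had 0.20 with an unadjusted p of 0.492.

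RT1-Ba, the alpha chain that pairs with RT1-Bb, had tested probe sets of both signs. The brightest, 1370822_at, gave 84.3, 186, 149.8 and 91.3 on quercetin arrays 1 to 4, against 123, 80.2, 112 and 97.6 on control arrays 1 to 4. Quercetin arrays 2 and 3 lay above all control arrays and quercetin arrays 1 and 4 below 3 of the 4, so the groups overlapped. The log2 fold change was 0.22 (SE 0.248, 95% interval -0.31 to 0.76, adjusted p = 0.792). It was 0.04 without quercetin array 2, and -0.060 without both arrays numbered 2.

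The other RT1-Ba probe sets gave 26.7, 25.5, 33.7 and 96 (1392334_at) and 23.3, 41.7, 24.6 and 77.9 (1381593_x_at) on quercetin arrays 1 to 4. On control arrays 1 to 4 they gave 34.3, 104.4, 48.7 and 57.1 (1392334_at) and 26.2, 99.6, 20.8 and 88.7 (1381593_x_at). Both were highest in their group on quercetin array 4 and control array 2, where the brightest probe set was low, and 1381593_x_at was also high on control array 4. Their log2 fold changes were -0.38 (SE 0.369, adjusted p = 0.755) for 1392334_at and -0.28 (SE 0.424, adjusted p = 0.857) for 1381593_x_at. Without control array 2 they were -0.15 for 1392334_at and -0.0095 for 1381593_x_at. A further one, 1377334_at, was too dim to be tested, at 1.06 to 35.6 in quercetin and 2.04 to 5.06 in control. Its difference was 0.39, with the 35.6 on quercetin array 4. When the 4 probe sets were averaged, RT1-Ba had a log2 fold change of -0.013.

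RT1-DMa and RT1-DMb form the DM heterodimer, which loads peptides inside endosomes and is not itself a peptide-presenting molecule. RT1-DMa had signals of 169, 122, 135 and 115 on quercetin arrays 1 to 4, against 125, 81.7, 129 and 131 on control arrays 1 to 4. Control array 2 was low, and the other 3 control arrays lay within the quercetin range. The log2 fold change was 0.19 (SE 0.202, 95% interval -0.24 to 0.63, adjusted p = 0.778), 0.05 without control array 2 and 0.09 without quercetin array 1. RT1-DMb had 238, 261, 279 and 204 in quercetin, against 309.8, 182, 192 and 217 in control. Control array 1 had the highest value of all, and quercetin array 4 lay below control array 4, so the groups overlapped. Its log2 fold change was 0.14 (SE 0.188, 95% interval -0.27 to 0.54, adjusted p = 0.84). It was 0.05 without control array 2, 0.07 without quercetin array 3 or control array 3, 0.22 without quercetin array 4 and 0.29 without control array 1. The upper bounds of both intervals, 0.63 and 0.54, lie near the values of Cd74 and RT1-Da, and the difference between the DM genes and the classical chains was not tested.

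Ciita was the dimmest of the 8, and its 2 probe sets lay on either side of the filter on low signal. The tested one, 1379381_at, gave 32.7, 58.2, 56.4 and 33.9 on quercetin arrays 1 to 4, against 25.1, 18.2, 36 and 36.1 on control arrays 1 to 4. Quercetin arrays 2 and 3 stood above the rest, and arrays 1 and 4 lay among the controls. The log2 fold change was 0.44 (SE 0.293, 95% interval -0.19 to 1.08, adjusted p = 0.628), 0.32 without control array 2 and 0.21 without control arrays 1 and 2. The probe set under the filter, 1369214_a_at, gave 34.7, 32, 62.2 and 24.5 in quercetin, against 32.8, 8.89, 10.7 and 42.5 in control. On it quercetin array 3 was highest, and control arrays 2 and 3 were lowest. Its difference, which was not tested, was 0.50.

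**Figure D3:**
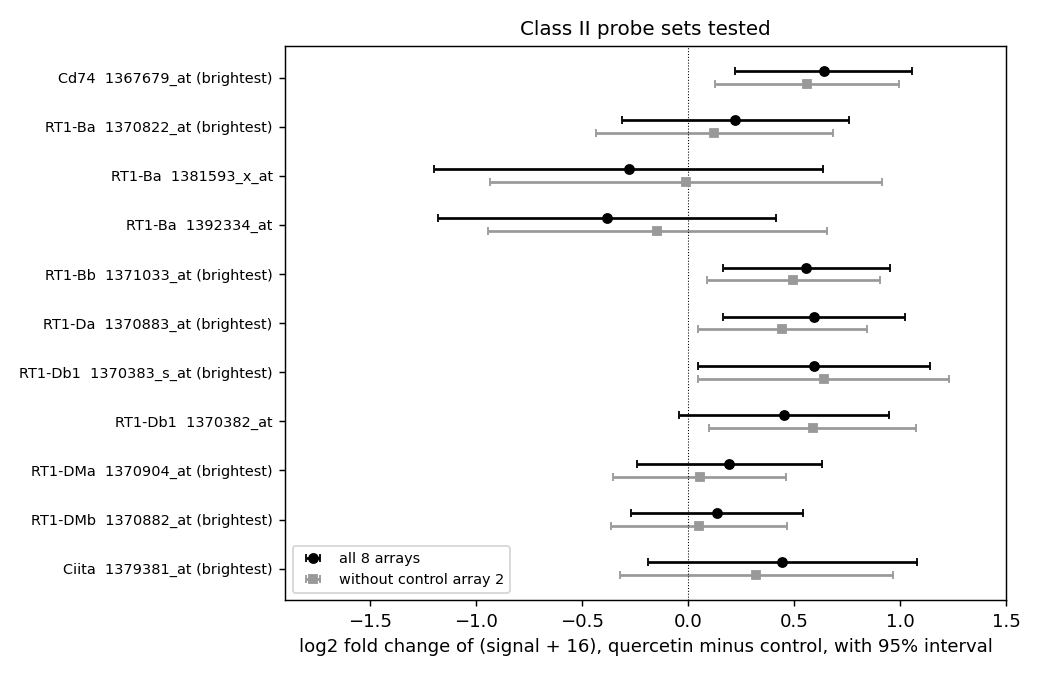
Log2 fold change of (signal + 16), quercetin minus control, with its 95% interval, for the 11 class II probe sets tested, over all 8 arrays (black circles) and without control array 2 (grey squares). The intervals of Cd74, RT1-Bb, RT1-Da and 1370383_s_at of RT1-Db1 lie above 0 in both settings, and 2 RT1-Ba probe sets have negative values.

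Genes that act beside the class II molecules were described from lists of related genes. At an unadjusted p under 0.05, 5.04% of all probe sets were higher and 5.71% lower. An adjusted p of 0.05 was passed by 0.0107%. Of 19 enzymes and helpers of endosomal processing, 17 were tested, 0 passed, 1 was higher at an unadjusted p under 0.05 and 0 lower, and their median log2 fold change was 0.06, or -0.0090 without control array 2. That gene was Ctsz, cathepsin Z, a lysosomal carboxypeptidase, with a signal of 223 ± 33 (SD, n = 4) in quercetin and 151 ± 24.4 (SD, n = 4) in control (log2 fold change 0.52). The next in order of p were Lgmn, the asparagine endopeptidase legumain (0.41), Lamp2, a lysosomal membrane protein (0.27, with 0.37 on another probe set), and the tetraspanin Cd81 (0.19). Ctss, the cathepsin that trims the invariant chain in antigen-presenting cells, and Ifi30, the lysosomal thiol reductase, had 0.04 and 0.03 and were named after their values were seen.

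Of 25 genes that bind the X and Y boxes or carry signals to Ciita, 18 were tested and 0 passed, with a median of 0.09. At an unadjusted p under 0.05, 2 were higher (background 5.04%) and 0 lower (background 5.71%). Usf1, a factor that binds the Ciita promoter, had 193 ± 31.8 (SD, n = 4) in quercetin against 129 ± 27.2 (SD, n = 4) in control (log2 fold change 0.53, with 0.75 on another probe set). Irf8, an interferon regulatory factor of myeloid and B cells, had 558 ± 23.9 (SD, n = 4) in quercetin against 446 ± 56.4 (SD, n = 4) in control (log2 fold change 0.32). The groups did not overlap in either gene (background 3.09%), though in Usf1 the lowest quercetin array and the highest control array were almost equal. Without control array 2 only Usf1 of the 18 was still called at that threshold (background 5.62% higher). Jak1, a kinase of interferon receptors, and Ifngr1, a chain of the interferon gamma receptor, had 0.21 and 0.19, and 0.11 and 0.09 without control array 2. The box-binding subunits Rfx5 and Nfya, named after their values were seen, had -0.0026 and 0.05. Ifng itself was under the filter, at 1.79 to 16 in quercetin and 19 to 25.9 in control.

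Of 13 genes of costimulation and of the CD4+ T cell side, 4 were tested and 0 were called at either threshold, with a median of -0.11. Cd86, a costimulatory ligand on antigen-presenting cells, had -0.14, Icos -0.15, Icoslg -0.07 and Itgal 0.09, and Cd80, Cd40 and Cd4 were among the 7 under the filter. Of 15 class I genes 13 were tested and 0 passed, with a median of 0.04. At an unadjusted p under 0.05, 0 were lower (background 5.71%) and 4 were higher (background 5.04%). They were Psmb9 (0.63) and Psmb8 (0.36), subunits of the immunoproteasome, Tapbp, the peptide-loading chaperone tapasin (0.54), and Tap2, a chain of the peptide transporter (0.99, or 0.66 without control array 2). Psmb8, Psmb9 and Tap2 are neighbours of the class II genes in the GRCr8 gene order, lying between RT1-Bb and RT1-DMb. Tap1 of the same list had 0.40 and was not called at that threshold, and a link with position was not tested. Without control array 2 the count of higher genes in the class I list was also 4 (background 5.62%). By sign alone, over all 8 arrays, 8 of the 13 were positive (background 51.3%) and 5 were negative. The negative ones were Nlrc5 (-0.45), RT1-CE5 (-0.39), RT1-A3 (-0.28), B2m (-0.13) and Erap1 (-0.07).

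**Figure D4:**
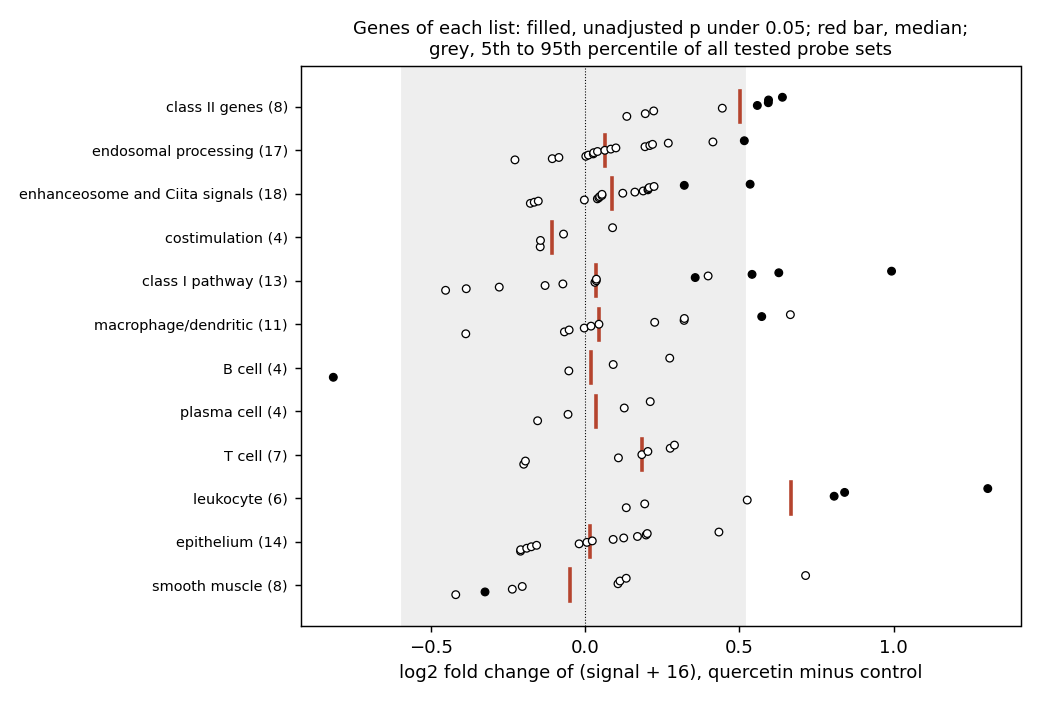
Log2 fold change of (signal + 16), quercetin minus control, of each tested gene by list, with the number tested in brackets, filled points for an unadjusted p under 0.05, a red bar at the median and a grey band from the 5th to the 95th percentile of all tested probe sets (-0.59 to 0.52). The medians of the class II genes, 0.50, and the leukocyte markers, 0.67, lie to the right of the other lists.

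The scrapings were checked against markers of the cells they could hold. All 14 epithelial markers were tested, with 0 called and a median of 0.01, and their summed signal was 150302 to 170418 in quercetin and 160774 to 178671 in control. Of the 14, 8 had a positive sign. Cldn7, a claudin of cell junctions, had 0.43 (0.17 without control array 2), Epcam, the epithelial adhesion molecule, -0.21, Cdh1, E-cadherin, 0.20 and Slc26a3, the chloride and bicarbonate exchanger, -0.19. Among markers of all leukocytes 3 of 6 were higher at an unadjusted p under 0.05 (background 5.04%), and none passed. The count without control array 2 was also 3 (background 5.62%). Arhgdib had 161 ± 55.6 (SD, n = 4) in quercetin and 82.2 ± 12.5 (SD, n = 4) in control (log2 fold change 0.81, adjusted p = 0.28). Coro1a, an actin regulator of leukocytes, had 1.31 (adjusted p = 0.32), the tetraspanin Cd53 0.84 (adjusted p = 0.39), and Lcp1, an actin bundler, 0.53. The Coro1a signal was 2.56 on control array 3, against 46.1 to 68.6 on the other control arrays. The other tested members of the leukocyte list were Rac2, with 0.13, and Ptprc, the common leukocyte antigen CD45, with 0.19, or 0.018 without control array 2.

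The tested markers of single classes of antigen-presenting cell did not share that median. Of 28 macrophage and dendritic cell markers 11 were tested, 7 of them higher, with a median of 0.04, or 0.22 without control array 2. Lyz2, lysozyme of myeloid cells, was the 1 gene with an unadjusted p under 0.05 (log2 fold change 0.57, background 5.04% higher). It was followed by Csf1r, the macrophage growth factor receptor (0.67), Fcer1g (0.32) and Aif1 (-0.39). Without control array 2, where Csf1r had a signal of 1.74, Csf1r had 0.24 and Aif1 -0.18. The summed signal of this list was 3205 to 3346 in quercetin and 2233 to 4304 in control. Most of it came from 1 gene, Cd14, with 1906 to 2382 in quercetin and 1121 to 3323 in control. Its 11 members under the filter, which included Cd68, Itgax, Itgam and Adgre1, had signals of 1.40 to 68.2.

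Of 15 B cell markers 4 were tested, with a median of 0.02, and Fcrla had -0.82 with an unadjusted p under 0.05, where 5.71% of all probe sets were called lower, while Cd22, Cxcr5 and Fcer2 had 0.27, -0.05 and 0.09. The list's summed signal was 395 to 619.6 in quercetin and 375 to 522 in control, and Cd79b and Ms4a1 were among 7 members under the filter. Plasma cell markers had a median of 0.04 over 4 genes and sums of 3899 to 4734 in quercetin and 3413 to 3960 in control. Xbp1 and Sdc1 made up most of these sums, with means of 2319 and 1702 in quercetin and 2008 and 1567 in control. Xbp1 had 0.21, Sdc1 0.13, Mzb1 -0.06 and Jchain, the joining chain of secreted antibodies, -0.15 on its brightest probe set and 0.97 on another. T cell markers had a positive sign in 5 of 7 tested genes, 0 called and a median of 0.18, which was -0.11 without quercetin array 2 and -0.06 without control array 1. Lck had 0.28, Il7r 0.29, Itgae -0.19 and Zap70 -0.20, and the sums were 748 to 1253 in quercetin and 637 to 1155 in control. Smooth muscle markers had a median of -0.05 over 8 tested genes, 4 higher and 4 lower, with Tagln, Cnn1, Actg2, Myl9 and Lmod1 under the filter. The sums over this list were 3394 to 3778 in quercetin and 3938 to 5833 in control. Tpm1 and Mylk made up most of these sums, with means of 1652.5 and 1295 in quercetin and 2087 and 1798 in control. Tpm1 had -0.32, and -1.41 to 0.35 on its other probe sets. Mylk had -0.42, Tpm2 0.71 (0.45 without control array 2) and Myh11 -0.24. The part of any of these cell types in the class II values was not tested.

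**Figure D5:**
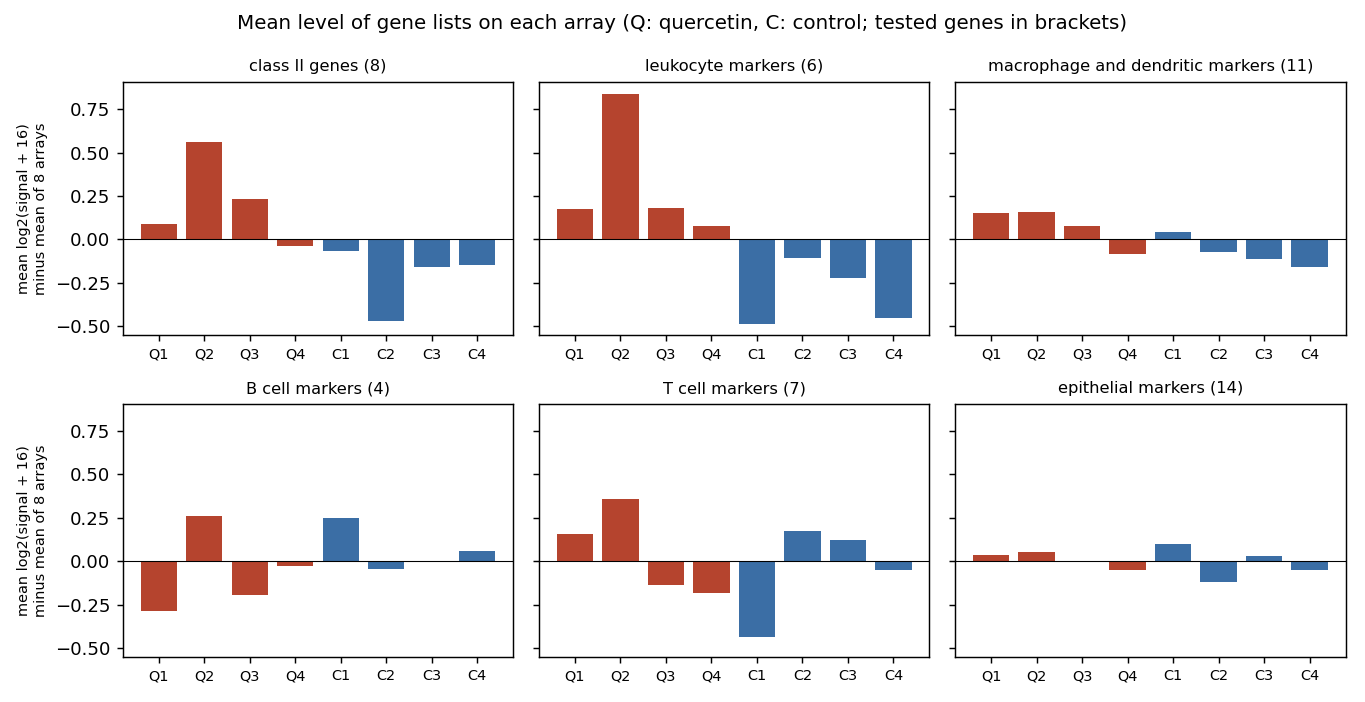
Mean log2(signal + 16) over the tested genes of a list on each array, minus the mean of the 8 arrays (Q, quercetin arrays 1 to 4; C, control arrays 1 to 4). Quercetin array 2 is highest for the class II genes (0.56) and for the leukocyte markers (0.84), while the lowest array is control array 2 for the class II genes (-0.47) and control array 1 for the leukocyte markers (-0.49).

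The genes whose pattern over the 8 arrays was most like the mean of the class II genes were found among 10258 other genes by Pearson's r, given as a description. They were Gata6, a transcription factor of gut epithelium (r = 0.96), Ralgds, an exchange factor for Ral proteins (0.96), Alkbh6 (0.94), Pmm1, a phosphomannomutase (0.94), and Mfsd14a (0.94). Gata6 had 183 ± 31.7 (SD, n = 4) in quercetin and 110.5 ± 23 (SD, n = 4) in control, a log2 fold change of 0.66 (adjusted p = 0.299). When deviations from each diet's mean were compared instead, Pmm1 (0.95), Arfrp1 (0.94), Peli3 (0.94), Ralgds (0.94) and Llph (0.93) came first, so 2 genes, Pmm1 and Ralgds, were named by both measures. With so few arrays and so many genes compared, values of this size are found for some genes in any such search.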

How the data were processed

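Each deposited array holds a linear intensity for every probe set. The submitters' processing notes name MAS5 and no other step. After trimming 2% from both tails, each deposited array averaged 200.1. The columns were matched to the sample titles. From 31099 probe sets 57 array controls were left out, and log2(signal + 16) was tested for the upper 60% by mean over all arrays, which left 18625 with a mean signal above about 29.4. Array medians of log2 signal differed by at most 0.406, under the limit of 0.5 set for adding a normalisation. Of the 14 class II probe sets 11 were tested.

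The diets were compared with lmFit and eBayes with a trend (limma 3.58.1, R 4.3.3, two-sided), with Benjamini-Hochberg adjustment over all tested probe sets. Every adjusted or unadjusted p is from this fit, or from the variant of it named beside the value. The steps were also run on simulated data, and no result of that run is used here. Precision is limited by having 4 arrays a diet, with a median standard error of 0.222.

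Symbols came from the platform annotation, and 20758 Entrez identifiers were found in RefSeq's GRCr8 table with 0 symbols changed. Named were all 8 genes and, of each other list, the 4 genes with the smallest p. The remaining leukocyte markers and some further genes of the lists were named after their values were seen. The class II genes, lists and tests were chosen with earlier results of these data known. Of 5 other class II chains listed (RT1-DOa, RT1-DOb, RT1-Db2, RT1-Ha and RT1-Hb) 0 had a probe set of their own.

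Equal sample numbers were checked for pairing. Same-numbered arrays had correlations of deviations from the diet means of -0.15 to 0.16, with 2 of 4 over 0.1, so the numbers were not taken as pairs. The alternatives were other pseudocounts, scalings, filters, weights, eBayes without the trend, the sample number as a block, the GAPDH 3′ to 5′ ratio as a covariate, averaging all probe sets of a gene, and arrays left out.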

Additional observations from a re-analysis of the deposited data

Results flagged for a closer look

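Gaps between single arrays and the rest of their diet group were examined in 56 sets of 4 values (14 probe sets, the class II mean, 11 list means and 2 quality ratios, in each diet). In 5 of them an array stood apart by Dixon's criterion, and about 2.8 are expected by chance. The value in brackets is that array's distance to its neighbour divided by the whole range. Quercetin array 2 lay high for Cd74 (0.897), for 1370383_s_at of RT1-Db1 (0.894) and for the mean of the leukocyte markers (0.864). Control array 2 lay low for RT1-DMa (0.886) and high for the dim 1371065_at of RT1-Bb (0.866).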

How the results depend on the processing

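Over 21 alternatives the sign of each class II gene held, with the exception of RT1-Ba, which had -0.013 with the mean of its probe sets and -0.060 without both arrays numbered 2 (chosen after the data were seen). No gene passed an adjusted p of 0.05 in any of them, and the lowest adjusted p was 0.188, for Cd74 with the GAPDH ratio as a covariate. The number of class II genes higher at an unadjusted p under 0.05 was 3 to 4 with 1 array left out (background 3.15% to 5.62%), but 1 without both arrays numbered 2, where the median fell to 0.27, against 0.50 with all arrays and 0.35 to 0.59 with 1 array left out. RT1-Bb had 0.20 with the mean of its probe sets and was no longer called at that threshold. Ciita could not be tested with the upper 40% of probe sets. Over all probe sets, 2 passed with the settings used and 3 with a pseudocount of 64; 1 passed with a pseudocount of 1, quantile normalisation, median centring, no filter, the replicate block, eBayes without the trend or without both arrays numbered 2, and 1 to 2 with 1 array left out. Without control arrays 1 and 2 limma called 0, with 1394 at an unadjusted p under 0.05. With the sample number as a block 4 class II genes had an unadjusted p under 0.05 (background 4.79%); in this balanced design the block cannot move a fold change. Median centring called 1109 of 1924 probe sets higher at an unadjusted p under 0.05, against 939 of 2003 without it. Signal limits the reading of Ciita and of most markers of immune cells, which lay near or under the filter.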
